A study of Mus musculus with 27 samples.

Results

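The comparison set all hearts labelled with a deletion of 1 copy of Brg1 against all hearts with both copies, whatever else they carried. Of 27 arrays, each of RNA from E11.5 mouse hearts, strain C57Bl/6/BLKSW mix, 12 carry Brg1+/- in the label and 15 do not. The 12 were 6 hearts labelled Brg1+/- alone, 3 labelled Tbx5+/-;Brg1+/- and 3 labelled Nkx2-5+/-;Brg1+/-. The 15 were 6 wild-type hearts, 5 labelled Tbx5+/- and 4 labelled Nkx2-5+/-. The difference was estimated as 1 additive Brg1 term with the factor background (none, Tbx5 or Nkx2-5) as covariate. In this term the background without a factor deletion carried 45.5% of the weight, Tbx5 28.5% and Nkx2-5 26%. The labels describe every deletion as heterozygous. They name neither a Cre driver nor pooling, and do not say whether arrays of a group came from separate litters, so p-values measure the spread between these samples.

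Brg1, encoded by Smarca4, is one of the alternative ATPases of the BAF chromatin remodelling complexes, which slide and eject nucleosomes with energy from ATP. In the embryonic heart BAF complexes work with the transcription factors Tbx5, Nkx2-5 and Gata4. Tbx5 and Nkx2-5 bind regulatory DNA of chamber genes such as Nppa and Nppb, which encode the atrial and brain natriuretic peptides.

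The tissue label was checked on heart muscle markers. The mean log2 signal of the 32 sarcomere and Z-disc genes lay between 10.07 and 10.71 in the 6 groups, against 6.56 for the median of all 19935 genes. The targeted gene checks the Brg1 labels. On 11 of the 12 arrays labelled Brg1+/- the log2 signal of Smarca4 was between 9.16 and 9.64, and on 14 of the 15 others between 9.89 and 10.23. The library labelled Tbx5+/-;Brg1+/- replicate 3 read 10.01 and the library labelled Nkx2-5+/- replicate 3 read 9.57, each in the range of the opposite group. Both were kept under their labels, and the main results that rest on them are given with and without them. The Tbx5 label was not borne out by the Tbx5 probe set. Its log2 signal was 8.80 ± 0.17 (SD, n = 5) in Tbx5+/- and 8.61 ± 0.10 (n = 3) in Tbx5+/-;Brg1+/-, not lower than the 8.57 ± 0.20 (n = 6) of wild type. Where the deletion lies in the gene is not in the labels, so whether this probe set falls within it is not known here, and Tbx5+/- names the label throughout. The Nkx2-5 signal was 8.74 ± 0.44 (n = 4) in Nkx2-5+/- and 9.04 ± 0.19 (n = 3) in Nkx2-5+/-;Brg1+/-, beside 9.59 ± 0.34 (n = 6) in wild type. Nkx2-5+/- replicate 3 read 9.40, within the wild-type range of 9.17 to 9.96, and the others of its group 8.475 to 8.63.

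One gene differed with Brg1 deletion across the 3 backgrounds at a limma adjusted p under 0.05, and it was Smarca4 itself. Its log2 difference, deleted minus intact, was -0.56 (SE 0.07, 95% interval -0.70 to -0.42, adjusted p = 1.5e-04), a 1.47-fold lower signal. This is 0.00502% of the genes tested. Within the background without a factor deletion the Smarca4 difference was -0.74 (SE 0.09). It was -0.36 (SE 0.12) beside Tbx5+/- and -0.45 (SE 0.13) beside Nkx2-5+/-, the comparisons that hold the libraries whose Smarca4 goes against the label. Without those libraries they were -0.50 (SE 0.11) and -0.56 (SE 0.11), and the additive difference was -0.64 (adjusted p = 1.8e-07). The libraries left out were picked by their Smarca4 signal, so a larger Smarca4 difference without them follows from that choice and is no support. With the 15 arrays of factor-deleted hearts alone no gene passed, Smarca4 included (-0.40, adjusted p = 0.857).

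Across the other genes the shift was small. At an unadjusted p under 0.05 there were 784 genes, 469 higher and 315 lower, or 3.93% of those tested. No gene had its 12 deleted arrays wholly above or below its 15 intact ones. The median standard error was 0.0753, and for 98.5% of genes the 95% interval lay within a log2 difference of 0.5 in either direction. Only 12 genes had an estimate beyond 0.5, among them the X-linked Xist and the Y-linked Kdm5d, Eif2s3y and Uty, named after their values were seen. Y-linked signal was present on 6 of the 12 deleted and 4 of the 15 intact arrays.

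**Figure D1:**
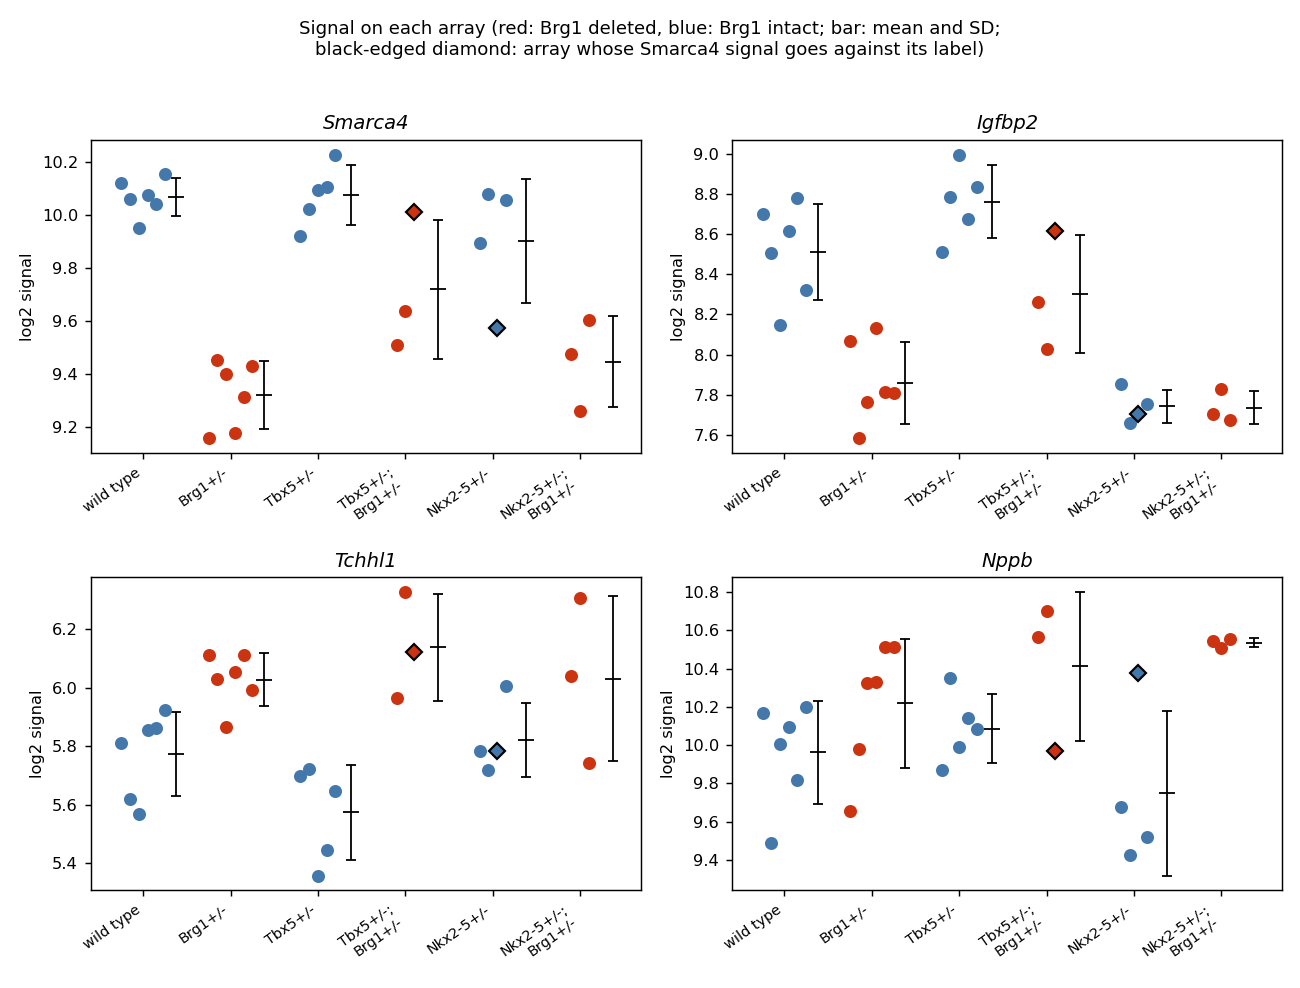
Log2 signal (y axis) of Smarca4, Igfbp2, Tchhl1 and Nppb on each of the 27 arrays, by genotype group (x axis), with Brg1-deleted arrays in red, intact arrays in blue and the mean and SD of each group as a black bar. Igfbp2 is low in Brg1+/- and in both groups with Nkx2-5+/-, and the diamonds mark Tbx5+/-;Brg1+/- replicate 3 and Nkx2-5+/- replicate 3, whose Smarca4 reads 10.01 and 9.57.

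After Smarca4, the 14 genes with the smallest p are given as values without a call, and their adjusted p ran from 0.258 to 0.841. Together with Smarca4, 4 of these 15 genes were lower and 11 higher. Each kept its sign in all 3 backgrounds, as did 20.6% of all genes. The additive term that picked them averages those backgrounds, so the shared sign is no separate support. The lower genes were Smarca4, Igfbp2, Ddc and Ctnnal1.

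Igfbp2 encodes a secreted protein that binds insulin-like growth factors. Its log2 signal ran from 8.15 to 8.78 in wild type, with a median of 8.56. In Brg1+/- hearts it ran from 7.58 to 8.13, with a median of 7.81. The difference of -0.65 (SE 0.11, limma adjusted p = 0.0362) was called within the background without a factor deletion. The call was lost with further quantile normalization (adjusted p = 0.171), the replicate block (0.106), the erythroid covariate (0.179) and the Y-linked covariate (0.107), and the fit of these 12 arrays alone gave 0.214. It was also lost when any 1 of 16 of the 27 arrays was left out, with adjusted p between 0.00583 and 0.203 over all 27, and it stood without either or both of the libraries against their labels. In Tbx5+/- the values were 8.51, 8.79, 8.999, 8.68 and 8.84, and in Tbx5+/-;Brg1+/- they were 8.26, 8.03 and 8.62. The highest of the latter came from the library whose Smarca4 goes against its label, and it alone lay within the range of Tbx5+/-. In Nkx2-5+/- hearts Igfbp2 was already at 7.85, 7.66, 7.70 and 7.75, and in Nkx2-5+/-;Brg1+/- it was at 7.70, 7.83 and 7.68. Those groups overlapped fully, with a difference of -0.005 (SE 0.15). The additive difference of -0.43 (SE 0.09, adjusted p = 0.258) averages these. Among the alternatives run, it was called only when arrays were weighted by their fit (-0.48, adjusted p = 0.0309). The interaction test of its 3 within-background differences gave an adjusted p of 0.144.

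Ddc encodes aromatic amino acid decarboxylase, which makes dopamine and serotonin. Its Brg1 difference was -0.63 (SE 0.15) without a factor deletion, -0.16 (SE 0.19) with Tbx5 and -0.33 (SE 0.20) with Nkx2-5. The additive difference was -0.42 (SE 0.11, adjusted p = 0.796). The mean Ddc signal of the intact groups ran from 7.64 in Nkx2-5+/- to 8.68 in Tbx5+/-. Ctnnal1, an alpha-catenin-like protein, had a difference of -0.23 (SE 0.06, adjusted p = 0.841).

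The 11 genes on the higher side were Tchhl1, Acpp, Hspa1l, Klrg2, Sla2, Pate13, Gml, Srpx2, Prss47, Nr1h4 and Macrod2. Of these, 10 had a mean signal below that of the median gene, and Macrod2, an ADP-ribose hydrolase, was the one above it with a mean of 7.73. Their additive differences lay between 0.21 for Acpp, an acid phosphatase, and 0.33 for Tchhl1. Tchhl1, a trichohyalin-like protein of the epidermis, ran from 5.74 to 6.33 on the deleted arrays, with a median of 6.05. On the intact arrays it ran from 5.36 to 6.00, with a median of 5.72, so the groups overlapped. Its difference was 0.33 (SE 0.07, adjusted p = 0.258), and it passed the threshold when Nkx2-5+/-;Brg1+/- replicate 3 was left out (0.37, adjusted p = 0.0377). Hspa1l, a member of the Hsp70 chaperone family, had a difference of 0.24 (SE 0.06). Nr1h4, the bile acid receptor, had one of 0.26 (SE 0.07).

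**Figure D2:**
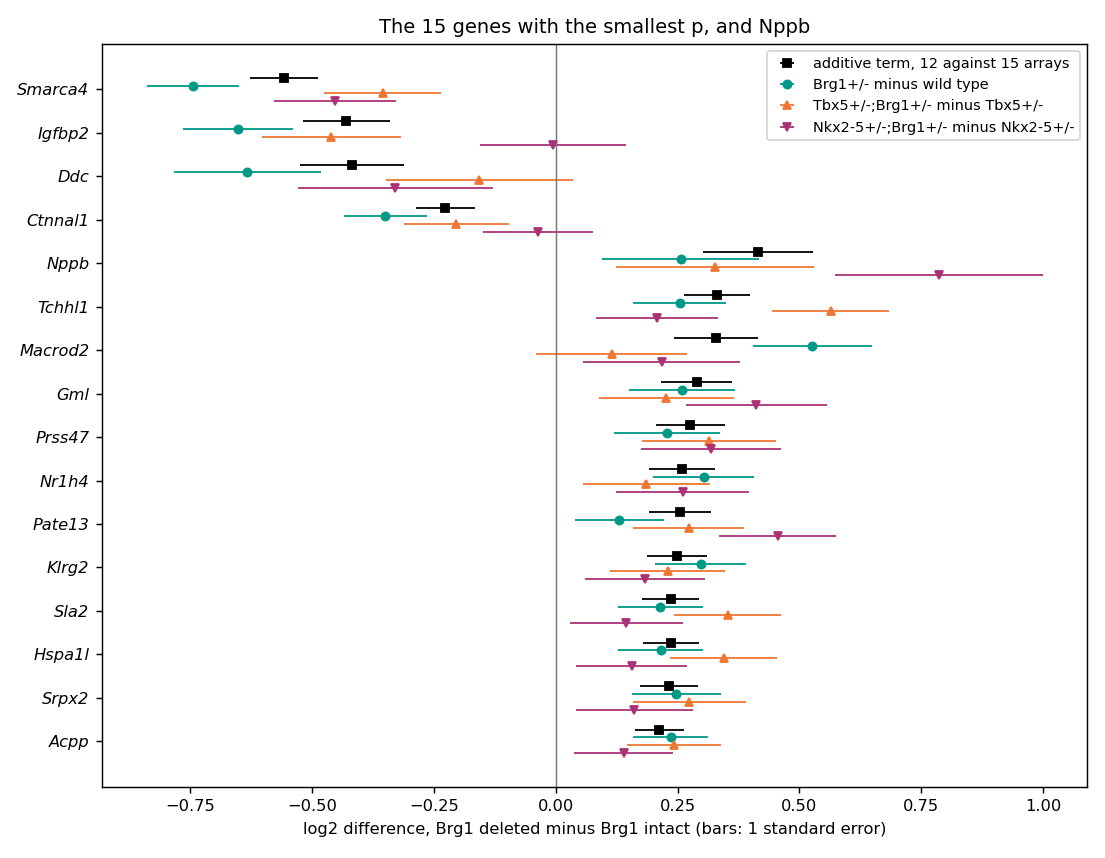
Log2 difference, Brg1 deleted minus intact (x axis, bars of 1 standard error), of the 15 genes with the smallest p and of Nppb, for the additive term and for each background. Smarca4, Igfbp2, Ddc and Ctnnal1 lie left of 0 and the 11 others and Nppb right of it. The Igfbp2 value beside Nkx2-5+/- sits at -0.005.

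Among heart genes the Brg1 difference with the smallest p outside that group was in Nppb. This gene was chosen from the list of chamber genes, and its neighbour Nppa on chromosome 4, named after its values were seen, serves as the closest comparison. The sequences below are the 250 bases before the start of each gene on the plus strand, from RefSeq, GRCm38.p6. They are shown because the factors whose loss defines the backgrounds are known to act through such regions. Nppb covers chr4:147985650-147985899 and Nppa chr4:148000472-148000721.
Nppb: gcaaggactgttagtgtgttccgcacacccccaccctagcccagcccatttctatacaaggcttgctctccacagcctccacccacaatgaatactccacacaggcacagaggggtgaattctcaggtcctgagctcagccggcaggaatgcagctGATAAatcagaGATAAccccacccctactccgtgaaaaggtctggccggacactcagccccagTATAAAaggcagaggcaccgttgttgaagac
Nppa: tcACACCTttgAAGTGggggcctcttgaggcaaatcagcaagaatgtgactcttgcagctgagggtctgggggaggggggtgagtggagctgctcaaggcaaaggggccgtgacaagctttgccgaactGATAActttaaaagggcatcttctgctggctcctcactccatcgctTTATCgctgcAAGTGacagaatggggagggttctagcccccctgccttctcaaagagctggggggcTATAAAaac
Capitals mark words searched on both strands, which overlap nowhere in either window. They are GATAA or TTATC for Gata factors, AGGTGT or ACACCT for T-box factors, AAGTG or CACTT for Nkx2-5, and TATAAA or TTTATA. The Nppb window holds GATAA at 94 and 83 bases before the start and TATAAA at 31. The Nppa window holds GATAA at 121, TTATC at 75, ACACCT at 248, AAGTG at 239 and 65, and TATAAA at 9. Among all 32851 windows of the same length, some genes having several, the Gata word was present in 22.6%, the T-box word in 11.8%, the Nkx2-5 word in 40.7% and the TATA word in 12.4%. A match is a string of letters and was not tested for binding.

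The log2 signal of Nppb was 10.17, 9.49, 10.01, 10.10, 9.82 and 10.20 in wild type. In Brg1+/- it was 9.66, 9.98, 10.33, 10.33, 10.51 and 10.51, so the groups overlapped while 4 of the 6 Brg1+/- hearts were above every wild type. In Tbx5+/-;Brg1+/- the values were 10.57, 10.70 and 9.97, the lowest again from the library against its label, beside 9.87 to 10.35 in Tbx5+/-. In Nkx2-5+/-;Brg1+/- they were 10.55, 10.51 and 10.55. In Nkx2-5+/- they were 9.68, 9.43, 10.38 and 9.52, where the high value is the library whose Smarca4 reads low. The additive difference was 0.41 (SE 0.11, 95% interval 0.18 to 0.65, adjusted p = 0.897), from 0.26, 0.33 and 0.79 in the backgrounds without a factor, with Tbx5 and with Nkx2-5. Without both libraries against their labels it was 0.51 (adjusted p = 0.1796), from 0.26, 0.55 and 0.996 in the same order. The last was called (adjusted p = 0.00152), as 1 of 2363 genes called in that background then, against 8 with all arrays. In the factor-deleted hearts alone without those libraries the Nppb difference was 0.78. It passed the threshold (adjusted p = 0.0191), the one gene that did. Smarca4 was at -0.53 there (adjusted p = 0.0697). That alternative was added after the data were seen, and the arrays it leaves out were picked by their Smarca4 signal.

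Nppa, which encodes atrial natriuretic peptide, was not called. It read 12.17 to 13.09 in wild type and 12.32 to 13.23 in Brg1+/-, with overlapping ranges, and the additive difference was 0.11 (SE 0.14, 95% interval -0.17 to 0.39). Its within-background differences were 0.014, -0.029 and 0.45, and without both libraries against their labels the last 2 were 0.22 and 0.70 (adjusted p = 0.0535 for 0.70). Whether Nppb and Nppa differ from each other in their response was not tested.

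The other 27 BAF subunits showed no change past the test. Their additive differences lay between -0.15 and 0.066, with a median of -0.039 beside -0.0074 for all genes, and 19 of the 27 were below 0. None had an unadjusted p under 0.05, and the smallest was 0.0647, for Bcl11a. The 95% intervals of all 27 lay between -0.37 and 0.23. Smarca2, which encodes Brm, the alternative ATPase of the complex, had a difference of -0.12 (SE 0.09, 95% interval -0.32 to 0.07). It was -0.33, -0.20 and 0.31 in the backgrounds without a factor, with Tbx5 and with Nkx2-5, and without both libraries against their labels the last 2 were -0.0021 and 0.27. Brd9, a subunit of the non-canonical complex, had the lowest estimate (-0.15, SE 0.10) and Ss18l1 the highest (0.066, SE 0.06). Pbrm1, the polybromo subunit, was at -0.059 (SE 0.07). Among 25 other remodellers and Polycomb genes 22 were below 0, with a median of -0.047 and none at an unadjusted p under 0.05. Chd8 and Chd3, the members with the smallest p, were at -0.093 (SE 0.05) and -0.12 (SE 0.09).

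**Figure D3:**
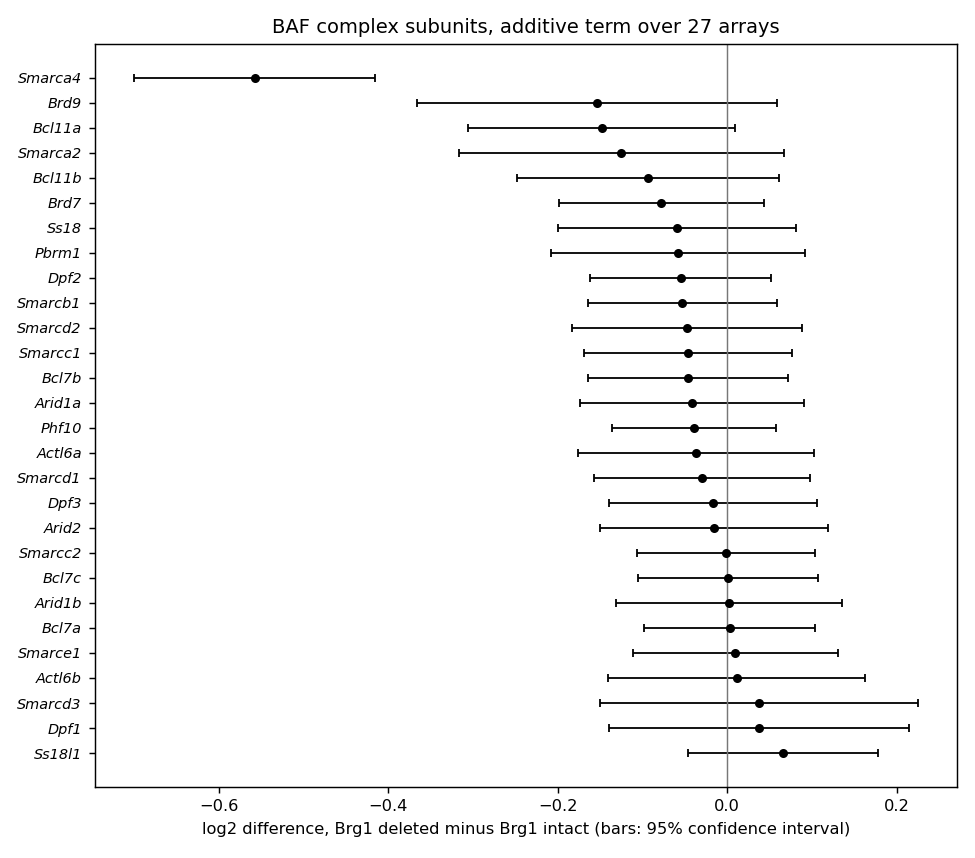
Additive log2 difference, Brg1 deleted minus intact (x axis), of the 28 BAF subunit genes with 95% confidence intervals, ordered by estimate. The interval of Smarca4 ends at -0.42, below all other estimates, and each of the 27 other intervals includes 0.

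The heart muscle lists lay near 0 in the additive term. The median over 32 sarcomere and Z-disc genes was 0.0091, with 14 below 0 and 18 above. It was -0.0080 over 19 chamber genes, -0.031 over 17 calcium handling genes and -0.015 over 13 genes that reviews name as Brg1 targets in the heart. None of these lists had a called member, and Nppb was the only one of their genes at an unadjusted p under 0.05. Myoz2, a Z-disc protein, was at 0.26 (SE 0.16), Ankrd1, a stress-responsive partner of titin, at 0.15 (SE 0.09) and Atp2a2, the calcium pump of the sarcoplasmic reticulum, at -0.072 (SE 0.08).

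Lists of regulators and metabolism leaned below 0 without a called gene. Of 33 cardiac transcription factors 25 were below 0 (median -0.033), and Prox1 had the smallest p (-0.19, SE 0.08, limma adjusted p = 0.999). Nr2f1, an orphan nuclear receptor, was at -0.25 (SE 0.13). Of 23 conduction and ion channel genes 19 were below 0 (median -0.066), with the calcium sensor Vsnl1 at -0.24 (SE 0.13) and the pacemaker channel Hcn4 at -0.20 (SE 0.11). Of 23 mitochondrial genes 16 were below 0 (median -0.054), with Ckmt2, the muscle mitochondrial creatine kinase, at -0.23 (SE 0.10, limma adjusted p = 0.999). Of 21 glycolysis and hypoxia genes 18 were below 0 (median -0.075), among them the glucose transporter Slc2a3 at -0.12 (SE 0.08) and adrenomedullin, Adm, at -0.14 (SE 0.11). Over all genes 10790 of 19935 were below 0. Without a factor deletion the counts below 0 of these lists, in the order given, were 30, 21, 22 and 18. With Tbx5 they were 23, 15, 20 and 14. Beside Nkx2-5+/- they were 7, 3, 4 and 5, with medians of 0.25, 0.20, 0.29 and 0.18. For all genes they were 11226, 9952 and 9297. Without both libraries against their labels the Tbx5 counts were 13, 11, 16 and 11 and the Nkx2-5 counts 4, 4, 2 and 4.

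Signalling lists had no called gene. Of 25 Wnt genes 20 were below 0 (median -0.048) and 2 had an unadjusted p under 0.05. Within backgrounds 21 were below 0 without a factor deletion, 17 with Tbx5 and 2 with Nkx2-5. Without both libraries against their labels the last 2 counts were 11 and 1. Wnt2, a ligand of the inflow region, was at -0.34 (SE 0.12) and Wnt9b, an endocardial ligand, at 0.13 (SE 0.05). The median was -0.017 over 24 Bmp and Tgf-beta genes, with the target Id1 at 0.11 (SE 0.07) and the effector Smad1 at -0.11 (SE 0.09). It was -0.012 over 19 Notch genes, with the ligand Dll1 at -0.13 (SE 0.07) and Mfng, which glycosylates Notch, at -0.12 (SE 0.07). It was -0.012 over 17 Igf genes, where Igfbp2 was the one member at an unadjusted p under 0.05 and Igfbp5 stood at -0.18 (SE 0.10). The outflow tract and second heart field list had a median of -0.036, immediate early and stress genes 0.036, with the transcription factor Fos at 0.18 (SE 0.08), and 30 cell cycle genes -0.0080, with the inhibitor Cdkn1b at -0.18 (SE 0.11).

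Markers of other cells that a dissected heart can hold are given beside these values, and their part in the results was not tested. In whole tissue, fewer cells of a type and less RNA per cell cannot be told apart. Of 20 macrophage and leukocyte genes 17 were below 0 (median -0.11) and 4 had an unadjusted p under 0.05. C1qb, a complement subunit of macrophages, was at -0.33 (SE 0.12, limma adjusted p = 0.999) and Cx3cr1, the fractalkine receptor, at -0.24 (SE 0.10). All 10 megakaryocyte and platelet genes measured were above 0 (median 0.22), with platelet factor 4, Pf4, at 0.58 (SE 0.22, limma adjusted p = 0.999) and the platelet receptor Clec1b at 0.27 (SE 0.14). Neither list had a called gene. The mean signal of the macrophage list ran from 5.82 to 6.18 in Brg1+/- and from 6.02 to 6.36 in wild type. That of the platelet list ran from 7.97 to 8.62 and from 7.47 to 8.12, so both lists overlapped between these groups.

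Of the other cell type lists, 25 endothelial and endocardial genes had a median of 0.013, 22 cushion and valve genes 0.018, 18 epicardial genes 0.027 and 12 smooth muscle genes 0.034. Prrx1, a mesenchymal homeobox gene, was the lowest of the cushion and valve list at -0.29 (SE 0.11). In that list 15 of 22 genes were above 0, the highest at 0.13. In the epicardial list Lrrn4 was the highest at 0.21 (SE 0.11) and Alcam the lowest at -0.22. The smooth muscle protein gene Tagln, at 0.20 (SE 0.13), was the highest of its list, in which the lowest value was -0.11. Skeletal and pharyngeal muscle genes had a median of 0.033, with 14 of 20 above 0 and the highest at 0.18. Their member with the smallest p, Tnni2, fast skeletal troponin I, was the lowest at -0.42 (SE 0.12, limma adjusted p = 0.999). Neural and glial genes had a median of 0.057, with Elavl3 at 0.14 (SE 0.07), and foregut epithelial genes 0.0094. Of 16 liver genes 13 were below 0 (median -0.13), with Fgg and Apoa2 at -0.25 (SE 0.15) and -0.29 (SE 0.20). Within backgrounds 15 were below 0 without a factor deletion, 11 with Tbx5 and 2 with Nkx2-5. The liver list mean was 7.49 in wild type replicate 3 and 6.62 in Brg1+/- replicate 6, above the other hearts of their groups. Of 4 sex-linked genes measured 1 was below 0 (median 0.89). Of the 29 list medians, 6 changed sign with further quantile normalization, those of the chamber, Notch, Igf, skeletal muscle, cell cycle and foregut lists. With array medians equalised 4 did, those of the sarcomere, endothelial, cushion and foregut lists.

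The additive term averaged backgrounds whose list medians often had opposite signs. In Brg1+/- against wild type all 32 sarcomere genes were below 0, with a median of -0.18. In Tbx5+/-;Brg1+/- against Tbx5+/- 25 of the 32 were below 0 (median -0.046), and in Nkx2-5+/-;Brg1+/- against Nkx2-5+/- none was (median 0.41). Cardiac transcription factors had medians of -0.18, -0.052 and 0.25 in the same order. The epicardial list had -0.20, -0.015 and 0.48, and the Bmp and Tgf-beta list -0.17, -0.048 and 0.29. The cell cycle list ran the other way, with 0.12, 0.0053 and -0.29, its Tbx5 value turning sign without any 1 of 3 arrays of that background (lowest -0.021). For all genes the medians were -0.021, 0.00020 and 0.016, with 11226, 9952 and 9297 of 19935 below 0. Genes of a list were read on the same arrays and are not replicates. The sarcomere list mean ran from 10.325 to 10.82 in wild type and from 10.005 to 10.59 in Brg1+/-. It ran from 9.81 to 10.72 in Nkx2-5+/- and from 10.42 to 10.57 in Nkx2-5+/-;Brg1+/-. Both pairs of ranges overlapped, and the 10.72 came from the library against its label.

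Values in the Tbx5 and Nkx2-5 backgrounds moved when the libraries against their labels, 1 in each, were left out. In the Tbx5 background 17 of the 32 sarcomere genes were then below 0 (median -0.010), and in the Nkx2-5 background 1 was (median 0.68). Cardiac transcription factors had medians of 0.027 and 0.48 there, the epicardial list 0.021 and 0.59 and the Bmp and Tgf-beta list 0.053 and 0.44. In these 3 lists the Tbx5 value thereby turned from negative to positive, and the epicardial value also did so without Tbx5+/- replicate 3 (0.069). The cell cycle medians were 0.0036 and -0.23. The signs without a factor deletion and beside Nkx2-5+/- were the same for these 5 lists whichever 1 array was left out. Only arrays of the same background can move such a median.

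**Figure D4:**
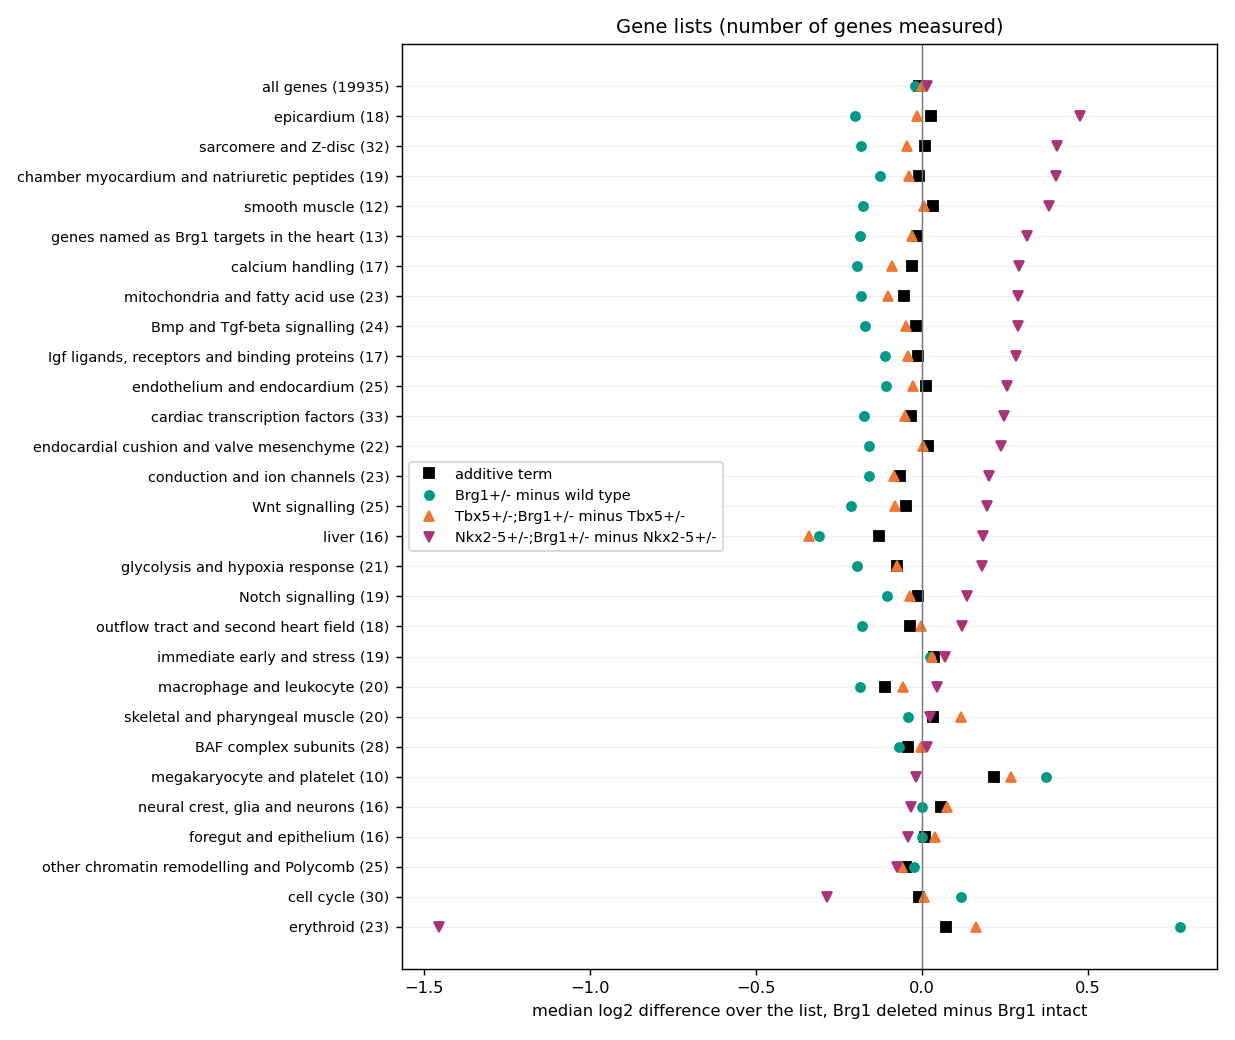
Median log2 difference, Brg1 deleted minus intact (x axis), of each gene list (y axis, with the number of genes measured) for the additive term and within each background. Additive medians of the sarcomere, chamber and smooth muscle lists lie near 0. They sit between a negative value without a factor deletion and a positive value beside Nkx2-5+/-. The erythroid list has the opposite order, 0.78 and -1.45.

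The erythroid list had the opposite order of signs. The mean log2 signal of 23 erythroid genes was 9.41 ± 0.53 (SD, n = 6) in wild type and 10.22 ± 0.57 (n = 6) in Brg1+/-. It was 9.49 ± 0.46 (n = 5) in Tbx5+/- and 9.66 ± 0.75 (n = 3) in Tbx5+/-;Brg1+/-, where replicate 3, the library against its label, was at 10.52 and the others at 9.32 and 9.14. In Nkx2-5+/- it was 10.60 ± 0.89 (n = 4), of which replicate 3 was at 9.26 and the other 3 between 10.97 and 11.08, and in Nkx2-5+/-;Brg1+/- 9.26 ± 0.78 (n = 3). The erythroid medians of the Brg1 difference were 0.78, 0.16 and -1.45, and the additive median was 0.072, with no called gene and none at an unadjusted p under 0.05. Without both libraries against their labels the Tbx5 value was -0.26, with all 23 genes below 0, and the Nkx2-5 value -1.98. That Tbx5 value rests on the Tbx5+/-;Brg1+/- arrays at 9.32 and 9.14, both within the 8.91 to 10.18 of Tbx5+/-. The 23 genes were read on the same arrays and are not replicates. The Tbx5 value was also negative without Tbx5+/- replicate 4. Hemgn, an erythroid nuclear protein, was at 1.66 (SE 0.54), 0.34 (SE 0.69) and -1.46 (SE 0.72), the last 2 being -0.31 (SE 0.71) and -2.02 (SE 0.69) without both libraries. In the additive term Hemgn was the highest of the erythroid list at 0.47 and Tspo2 the lowest at -0.26. With the erythroid mean as a covariate the sarcomere medians were 0.021, -0.011 and 0.088, and those of cardiac transcription factors -0.0026, -0.018 and 0.045. Medians within backgrounds with this covariate were an alternative added after the data were seen, as were those without both libraries. The epicardial medians with it were -0.15, -0.0011 and 0.35. With the same covariate the additive term again called Smarca4 alone, and Igfbp2 and Nppb were at -0.42 and 0.44 (adjusted p = 0.115 each). The platelet medians, 0.37, 0.27 and -0.019, became -0.0057, 0.18 and 0.51, and those of the macrophage list, -0.19, -0.056 and 0.047, became -0.30, -0.084 and 0.17. Without both libraries the Tbx5 and Nkx2-5 medians were 0.25 and -0.29 for platelet genes and -0.081 and -0.076 for macrophage genes.

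Across all genes the Brg1 difference without a factor deletion and the one beside Nkx2-5+/-, which share no arrays, correlated at r = -0.53, and at -0.74 among genes above the median signal. The same measure against the Tbx5 background was 0.21, and 0.34 among those genes. These describe genes on the same arrays, which are not independent replicates. The sign was the same for 38% of genes in the first pair of backgrounds and for 56.8% in the second. With the erythroid covariate the correlations were -0.15 and 0.12. Without both libraries against their labels they were -0.58 and -0.096.

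**Figure D5:**
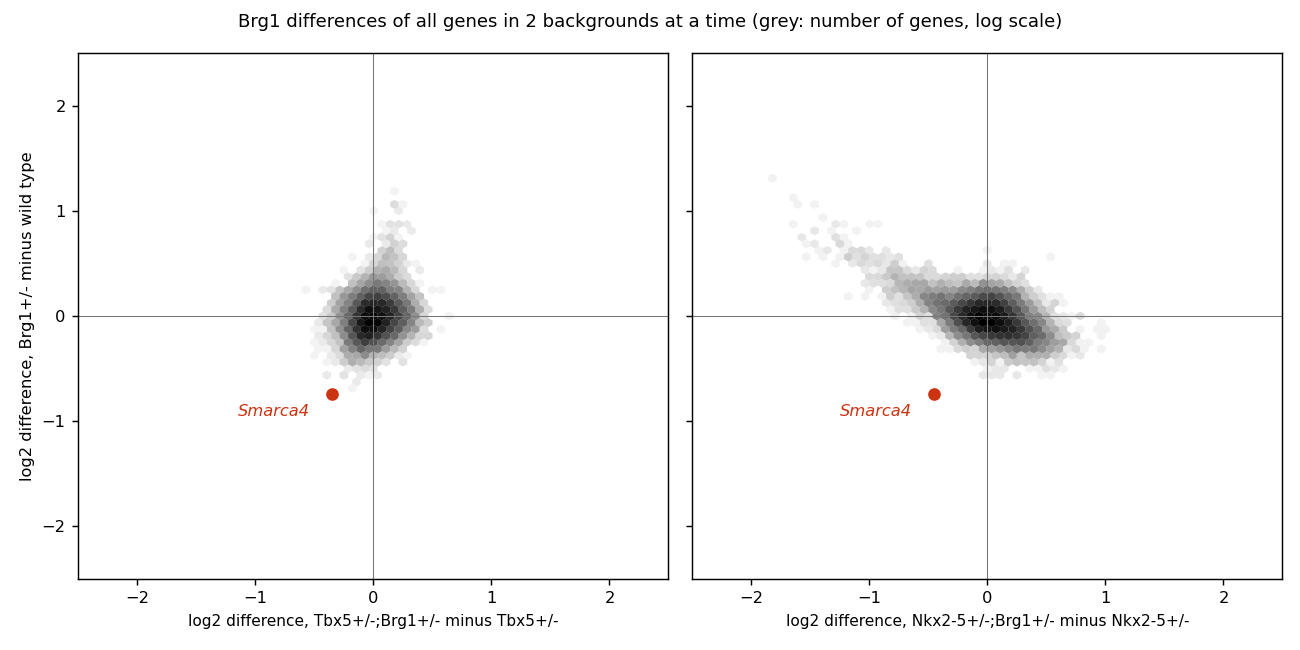
Log2 difference of all 19935 genes in Brg1+/- against wild type (y axis) and in the Tbx5 (left) or Nkx2-5 (right) background (x axis), with darker grey for more genes on a log scale. The right-hand cloud slopes downward (r = -0.53), and Smarca4 in red lies below 0 on both axes.

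The interaction test asked whether the Brg1 difference was the same in the 3 backgrounds. It called 2 genes, Slc4a4 and Aebp1 (limma adjusted p = 0.0493 each), or 0.01% of those tested, and 2892 genes had an unadjusted p under 0.05, which is 14.5%. At an adjusted p under 0.1 there were 546. Slc4a4, a sodium bicarbonate cotransporter, had Brg1 differences of -0.28 (SE 0.08), -0.22 (SE 0.10) and 0.54 (SE 0.11). Its signal was 6.96, 6.96 and 7.08 in Nkx2-5+/-;Brg1+/- and 6.45, 6.42, 6.75 and 6.21 in Nkx2-5+/-. Aebp1, an extracellular matrix protein, had -0.32 (SE 0.11), -0.13 (SE 0.14) and 0.78 (SE 0.14). Its signal was 8.69, 8.499 and 8.71 in Nkx2-5+/-;Brg1+/- and 8.05, 7.59, 7.77 and 8.02 in Nkx2-5+/-. Both genes were picked by the test on these arrays, so their values are no further support. The count of 2 was 1 with the erythroid covariate and 2140 without both libraries against their labels, and it was 2172 without Nkx2-5+/- replicate 3 alone. Without Brg1+/- replicate 5, wild type replicate 2 or Nkx2-5+/-;Brg1+/- replicate 3 it was 504, 449 and 256, and leaving out any 1 of 19 other arrays ended both calls.

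Within single backgrounds the calls were few. Brg1+/- against wild type called Smarca4 and Igfbp2 (0.01% of genes), the latter with the losses given above. Tbx5+/-;Brg1+/- against Tbx5+/- called none (0%), 494 genes having an unadjusted p under 0.05, and Tchhl1 had the smallest p (0.56, SE 0.12, adjusted p = 0.639). Myh11, smooth muscle myosin, was at 0.46 (SE 0.12) there and at -0.17 (SE 0.10) without a factor deletion. Nkx2-5+/-;Brg1+/- against Nkx2-5+/- called 8 genes (0.0401%), 7 of them higher. The 5 with the smallest p were Apela, the peptide ligand of the apelin receptor, the matrix protein gene Fmod, S100a6, the cadherin Cdh3 and Aebp1. Apela read 8.42, 8.48 and 8.66 against 7.62, 7.32, 7.62 and 7.52, a difference of 1.001 (SE 0.15, adjusted p = 0.0071). In Brg1+/- against wild type the same 5 genes were between -0.32 and -0.077, and none was called in the additive term. The count of 8 was 1 with the erythroid covariate and 2363 without both libraries against their labels. It was 2308 without Nkx2-5+/- replicate 3 alone, and 0 without Nkx2-5+/-;Brg1+/- replicate 2, which ended the call of Apela too (adjusted p = 0.0636). Tbx5 and Nkx2-5, the factors deleted in the other groups, had additive Brg1 differences of -0.14 (SE 0.10) and -0.033 (SE 0.11), with no call.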

How the data were processed

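The authors turned scans of Affymetrix arrays into log2 values by RMA in Affymetrix Power Tools (versions not given), per the submitters' processing notes; the genome build is not given in the sources used here. The deposited log2 signals of 28815 probe sets (1.64 to 15.144, array medians 6.181 to 6.328, correlations between arrays 0.973 to 0.995) were used unchanged. Arrays carry no counts, so their number limits the precision. Probe sets with 1 symbol (21780; 1605 had several and 5430 were not listed) were kept, and the brightest was taken for the 998 genes with several, which left 19935 genes, 19853 of them matched to the RefSeq table by identifier.

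Genotypes came from the labels. limma 3.58.1 in R 4.3.3 fitted the additive Brg1 term on all 27 arrays (23 residual and 6.23 prior degrees of freedom), and 6 group means gave the within-background differences and the F test of 2 interaction terms. Tests were two-sided, Benjamini-Hochberg adjusted over all genes and called at 0.05. All adjusted p in the text are limma's. The fit was tested on simulated data. Lists, shown by counts and medians without a test, and the genes compared were chosen with earlier results of these data known.

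Named were the targeted genes, the 15 with the smallest p in the additive term, the 5 called or 3 uncalled genes leading each other test, and up to 2 leading uncalled members of each list; clone, predicted and receptor-family names were not named, some genes the rule allows were left out, and Nppa was added after its values were seen. Same-numbered arrays were not alike throughout: over 55 pairs the correlation of their deviations ran from -0.45 to 0.41 (median 0.012), and 18 were over 0.1. Alternatives covered normalization, low signals, the variance prior, probe sets, array weights, the replicate block, erythroid and Y-linked covariates, subsets of arrays and each array left out. Python 3.11.15 with matplotlib 3.10.9 made the figures.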

Additional observations from a re-analysis of the deposited data

Results flagged for a closer look

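In 9 of 80 combinations of a gene or list with a group of 4 to 6 arrays, 1 array lay apart from the others by Dixon's criterion, which chance meets in about 1 of 20. Nkx2-5+/- replicate 3, the library whose Smarca4 reads against its label, had an Nkx2-5 signal of 9.40 beside 8.47 to 8.63 on the other 3 arrays. Its erythroid list mean was 9.26 beside 10.97 to 11.08, and its sarcomere list mean 10.72 beside 9.81 to 9.92. Tbx5+/- replicate 3 read 8.51 for Tbx5 beside 8.80 to 8.90, 8.75 for Aebp1 beside 8.07 to 8.22 and 9.74 for Gja5 beside 8.95 to 9.09. Wild type replicate 6 read 8.96 for Tbx5 beside 8.39 to 8.56. The liver list mean was 7.49 in wild type replicate 3 beside 5.42 to 5.96, and 6.62 in Brg1+/- replicate 6 beside 5.35 to 5.76. The Brg1 difference of Slc4a4 and of Aebp1 differed between the 3 backgrounds by the interaction test (adjusted p = 0.0493 for each).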

How the results depend on the processing

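The direction of the Smarca4 difference was the same in all alternatives, and it was called in each except the 2 on factor-deleted arrays alone: -0.40 with the 2 libraries whose Smarca4 goes against the label and -0.53 without them, an alternative added after the data were seen. The additive count of 1 was 2 with array weights (Igfbp2 joined), 0 with factor-deleted arrays alone and 1 to 2 with each array left out. The other counts depended more on the processing. The interaction count of 2 was 29 after quantile normalization, 0 with array medians equalised, 55 with the dimmest genes removed, 16 with a trended and robust prior, 0 with all probe sets, 4 with averaged probe sets, 3503 with array weights, 269 with the replicate block, 1 with the erythroid and 0 with the Y-linked covariate, 2140 without both libraries, 0 to 2172 with each array left out, and 987 and 0 as a single term for Nkx2-5 and for Tbx5, which were added later. The count in Brg1+/- against wild type, 2, was 1 (Igfbp2 lost) with quantile normalization, the replicate block or either covariate, 3 with array weights, 4 with all probe sets or without both libraries, and 1 to 4 with each array left out. That in the Tbx5 background, 0, was 2 with array weights and 0 with any 1 array left out. That in the Nkx2-5 background, 8, was 136, 1, 140 and 88 under the first 4 alternatives above, 3680 with array weights, 412 with the replicate block, 1 and 3 with the erythroid and Y-linked covariates, 2363 without both libraries and 0 to 2308 with each array left out. The cause of these moves was not tested. Of the 27 arrays, 8 correlated best with an array of their own number. The number to be met without pairing was not computed, so whether replicate numbers pair the arrays is left undecided. The block changed no call of the additive term but moved other counts, as given above.

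Additive differences without a call changed sign in subsets of arrays. With factor-deleted arrays alone, and then without both libraries, they were 0.11 and 0.24 for Tbx5, 0.11 and 0.27 for Nkx2-5, 0.036 and 0.11 for Nr2f1, 0.13 and 0.16 for Vsnl1, 0.052 and 0.20 for Atp2a2, 0.093 and 0.15 for Adm, -0.52 and -1.19 for Hemgn, 0.081 and 0.21 for Smad1, 0.031 and 0.14 for Igfbp5, 0.044 and 0.14 for Smarca2 and 0.013 and 0.047 for Bcl11a. Only in the second subset did Chd3 (0.070), Prox1 (0.042) and Hcn4 (0.044) turn. On arrays without a factor deletion alone Ankrd1 was at -0.025, Myoz2 at -0.10, Id1 at -0.068 and Pbrm1 at 0.12. Nkx2-5 was at 0.034 without both libraries, at 0.010 with equal weight for the backgrounds and at -0.074 to 0.0089 with each array left out.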
